A study of Mus musculus with 12 samples.

Results

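The genes described here encode the drug- and toxin-metabolising enzyme families of the mouse other than Cyp1: cytochrome P450s, glutathione S-transferases, UDP-glucuronosyltransferases of the Ugt1 and Ugt2 families, and aldehyde dehydrogenases. They were chosen by name, with earlier results of these data known. Protein-coding genes whose symbols start with Cyp, Gst, Ugt1, Ugt2 or Aldh followed by a letter or digit were taken, and Cyp1a1, Cyp1a2, Cyp1b1, Cyp51, Cycs and pseudogenes were left out. This gave 165 of the 43432 genes in the count table. Among them 7 are Cypt genes, which share the letters but encode no P450, and which had 0 counts in every library.

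The samples are 6 AHRKO and 6 WT libraries of CR705, an established line of mouse pancreatic cancer cells. AHRKO cells lack a working gene for the aryl hydrocarbon receptor (AHR) by their label, and WT cells are the unedited line. How the gene was disrupted, whether the AHRKO line is 1 clone, and the strain and age of the host mice are not stated in the sources used here. Nothing in the labels says that the 6 samples of a group came from separate animals, so p-values measure the spread between these samples. The source texts differ on the material: the RNA protocol speaks of tumours, which also hold host cells, and the texts on growth and treatment tell of dishes of cells given compounds. No sample label names a compound, so all 12 libraries are treated here as tumours without one, which is an assumption.

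Xenobiotic metabolism is usually described in phases. In phase 1, P450s of the endoplasmic reticulum insert oxygen into a compound, with electrons from P450 reductase, and aldehyde dehydrogenases turn reactive aldehydes into acids. In phase 2, glutathione S-transferases and UDP-glucuronosyltransferases attach glutathione or glucuronic acid, and transporters then export the product. AHR is a ligand-activated transcription factor that pairs with ARNT and binds a DNA element with the core GCGTG. It is best known for inducing the Cyp1 genes, and Aldh3a1, Ugt1a6a, Cyp2s1 and several glutathione S-transferase genes are known as further targets. Many genes of these families also handle the body's own molecules, such as retinoic acid, steroids, bile acids, leukotrienes and folate. The pancreas expresses far fewer of them than the liver.

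Library totals ran from 14772343 to 19944273 counts in AHRKO and from 19293174 to 35881469 counts in WT. Levels are given as CPM, counts per 1000000 counts of the scaled library total. Ahr itself was at 62.5, 94.0, 143, 75.2, 124 and 114 CPM in AHRKO replicates 1 to 6, against 114, 125, 113, 106, 110 and 101 CPM in WT replicates 1 to 6. The groups overlapped, with a log2 fold change of -0.13 ± 0.17 (SE) and an adjusted p of 0.606 by edgeR's quasi-likelihood test. A count over the whole gene does not show a small edit, so it does not check the AHRKO label. Of the genes left out of the set, Cyp1a2 had 0 counts in every library, and Cyp1a1 reached at most 0.114 CPM in AHRKO and 0.0512 CPM in WT. Cyp1b1, which oxidises hormones and planar hydrocarbons, ran from 16.2 to 152 CPM in AHRKO and from 25.6 to 66.1 CPM in WT. Its log2 fold change was 0.07 ± 0.54 (edgeR, adjusted p = 0.940). Epithelial markers were present in the pancreatic cancer samples, with 8 summed genes at 691 to 4755 CPM in AHRKO and 3419 to 4810 CPM in WT. The lowest of these sums was in AHRKO replicate 1, a library that recurs below. The summed CPM of 8 leukocyte markers ran from 467 to 2662 in AHRKO and from 260 to 494 in WT, and 8 of the 8 rose. In bulk RNA, fewer cells of a type and less RNA per cell cannot be told apart.

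Many of these genes were silent or nearly so. Of the 165 genes, 66 had enough counts to be tested, 62 had some reads but fell below the filter on low counts, and 37 had 0 counts in all 12 libraries. Of all 43432 genes in the count table, not only protein-coding ones, 15449 were tested and 14411 had 0 counts in all 12 libraries. A count of 0 allows up to 3 counts, which is 0.145 to 0.206 CPM in an AHRKO library and 0.0857 to 0.154 CPM in a WT library, covering counting error only. Of the 78 P450 genes in the Cyp2, Cyp3 and Cyp4 families, which in the liver oxidise drugs and fatty acids, 16 were tested, 38 fell below the filter and 24 had 0 counts. Of the 18 glucuronosyltransferase genes, 4 were tested, 10 fell below the filter and 4 had 0 counts. By contrast 18 of the 23 glutathione S-transferase genes and 18 of the 21 aldehyde dehydrogenase genes were tested, and none of either family was at 0 throughout.

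Per kilobase of exon, the highest mean level was that of Gsto1, an omega class transferase that also removes glutathione from proteins, at 103 CPM per kilobase (RPKM) in AHRKO and 110 RPKM in WT. Aldh2, the mitochondrial enzyme that clears acetaldehyde, followed at 90.0 RPKM in AHRKO and 108 RPKM in WT. Also high on this scale was Aldh1a3, which makes retinoic acid from retinal, at 70.5 RPKM in AHRKO and 55.9 RPKM in WT. Gstp1, the main pi class transferase, stood at 65.1 RPKM in AHRKO and 58.8 RPKM in WT. Gsta4, which conjugates the lipid peroxidation product hydroxynonenal, stood at 57.6 RPKM in AHRKO and 90.3 RPKM in WT. The highest P450 per kilobase was Cyp20a1, whose substrate is not known, at 16.9 RPKM in AHRKO and 18.9 RPKM in WT. Each of the 5 transferases and aldehyde dehydrogenases named here stood above every P450 of the set on the RPKM scale.

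Of the 66 tested genes, 9 rose and 6 fell in AHRKO at an adjusted p under 0.05 (edgeR's quasi-likelihood test, Benjamini-Hochberg over all tested genes). That is 22.7% of the tested enzymes. Among all 15449 tested genes 29.5% changed, with 15.9% rising and 13.6% falling, so the enzymes did not stand out by number. The median log2 fold change was -0.05 over the 66 enzymes and 0.02 over all tested genes, and 31 enzymes had a positive value and 35 a negative one. The other 51 did not pass, with log2 fold changes from -1.20 to 1.09. In 6 of the 66, or 9.09%, the AHRKO and WT libraries did not overlap at all, against 13.4% of all tested genes. These were Aldh1l1, Aldh1b1, Aldh16a1, Cyp21a1, Cyp4f18 and Gstm4. The count of falls depended on the tool: limma-voom with sample quality weights gave 10 rises and 13 falls among the enzymes. Counts over all tested genes moved as well, to 3080 rises and 2948 falls with limma-voom, against 2451 and 2106 by edgeR. By edgeR without AHRKO replicate 1, 12 of the 66 rose and 9 fell. Over all genes tested in that fit 2980 rose and 2778 fell, so these shifts were not particular to the enzymes.

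**Figure D1:**
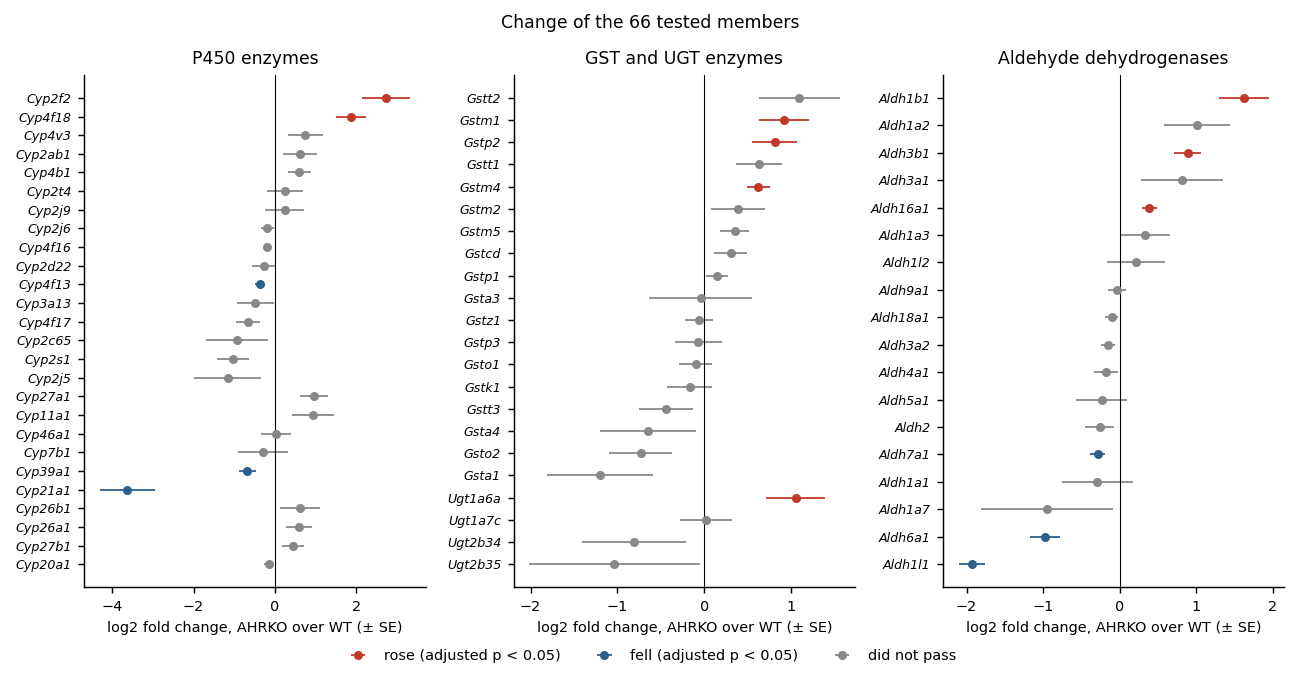
Log2 fold change of AHRKO over WT for each of the 66 tested enzymes, with its standard error as a horizontal bar, for P450s, conjugating enzymes and aldehyde dehydrogenases. Coloured points are the 9 that rose and the 6 that fell at an adjusted p under 0.05, and most of the others lie within 1 log2 unit of 0. The outermost coloured points are Cyp21a1 at -3.63 and Cyp2f2 at 2.73.

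The DNA around a RefSeq start is shown for 4 of these genes because AHR and ARNT act through the core GCGTG. Aldh1l1 and Gstm4 are a fall and a rise whose groups did not overlap, and Aldh6a1 and Gstm1 are the called genes whose windows held the core. The sequences are RefSeq promoter windows of the GRCm38.p6 build, from 250 bases before to 50 bases after the annotated start, written 5′ to 3′ on the strand of the gene. Capitals mark GCGTG. The Aldh1l1 window lies at chr6:90550543-90550842 on the plus strand and that of Gstm4 at chr3:108044810-108045109 on the minus strand, and neither window holds the core. The Aldh1l1 window lies inside the gene span given for Aldh1l1 below, and the start of that span was not examined. Aldh6a1 lies at chr12:84450975-84451274 on the minus strand with a GCGTG at bases 9 to 13 after the start. Gstm1 lies at chr3:108017924-108018223 on the minus strand with a GCGTG that ends 72 bases before the start.
Aldh1l1: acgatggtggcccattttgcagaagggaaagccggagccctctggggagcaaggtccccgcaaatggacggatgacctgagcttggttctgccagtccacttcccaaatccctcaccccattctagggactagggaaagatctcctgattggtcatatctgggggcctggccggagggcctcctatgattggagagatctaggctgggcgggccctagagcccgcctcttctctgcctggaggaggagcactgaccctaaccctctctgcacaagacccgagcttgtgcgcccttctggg
Gstm4: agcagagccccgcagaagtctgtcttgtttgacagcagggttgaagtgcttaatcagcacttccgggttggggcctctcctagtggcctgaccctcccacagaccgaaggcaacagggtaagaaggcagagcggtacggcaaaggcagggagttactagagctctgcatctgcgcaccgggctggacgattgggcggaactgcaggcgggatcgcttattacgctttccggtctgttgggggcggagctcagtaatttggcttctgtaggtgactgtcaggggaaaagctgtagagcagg
Aldh6a1: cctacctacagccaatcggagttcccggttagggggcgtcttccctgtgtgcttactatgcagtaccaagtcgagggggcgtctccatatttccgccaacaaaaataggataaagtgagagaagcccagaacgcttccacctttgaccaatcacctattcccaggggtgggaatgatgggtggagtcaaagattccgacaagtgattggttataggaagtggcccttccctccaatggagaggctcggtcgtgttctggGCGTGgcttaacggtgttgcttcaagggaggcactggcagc
Gstm1: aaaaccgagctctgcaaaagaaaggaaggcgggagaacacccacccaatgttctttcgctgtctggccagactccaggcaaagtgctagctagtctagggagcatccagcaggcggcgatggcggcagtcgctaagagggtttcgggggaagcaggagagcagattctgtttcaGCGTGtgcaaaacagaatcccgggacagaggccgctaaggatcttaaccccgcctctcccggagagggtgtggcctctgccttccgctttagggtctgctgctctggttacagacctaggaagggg

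GCGTG was counted on both strands in every RefSeq window. It stood in 10639 of 32851 windows of all genes (32.39%) and in 19 of 63 windows of the tested enzymes (30.16%), since some genes have several starts. Windows of the enzymes that rose held it in 2 of 11 cases, which are the overlapping Gstm1 windows with the same match. Windows of those that fell held it in 1 of 4 cases, and windows of tested enzymes that did not pass held it in 16 of 48 cases (33.33%). The core of the antioxidant response element, TGACNNNGC on either strand, stood in 12.39% of all windows and in 7 of 63 windows of the tested enzymes (11.11%). Cyp4f18 was the called gene whose window held it. A window was present for 12 of the 15 called genes. A match of these letters is a description of the window and not a measured binding site.

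Of the 18 tested aldehyde dehydrogenases 3 rose and 3 fell, a count close to the 29.5% of all tested genes that changed. The smallest p was that of Aldh1l1 (ENSMUSG00000030088, chr6:90486427-90600203 in mm10), the cytosolic formyltetrahydrofolate dehydrogenase that takes carbon units out of the folate pool. It had 13.2, 12.9, 11.3, 21.2, 17.6 and 14.4 CPM in AHRKO replicates 1 to 6, against 60.8, 58.9, 38.7, 65.9, 62.0 and 61.0 CPM in WT replicates 1 to 6. Every AHRKO library lay below every WT library. The means were 15.1 ± 3.65 CPM in AHRKO and 57.9 ± 9.69 CPM in WT (SD, n = 6 each), a log2 fold change of -1.94 ± 0.17 (edgeR, adjusted p = 4.87e-05). Its mitochondrial relative Aldh1l2, which runs the same reaction, averaged 22.9 ± 12.5 CPM in AHRKO and 19.7 ± 8.12 CPM in WT and did not pass (log2 fold change 0.21, edgeR, adjusted p = 0.704).

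Among the mitochondrial enzymes of amino acid breakdown, Aldh6a1, which acts in valine and thymine catabolism, fell. It had 14.5, 15.7, 13.1, 17.4, 25.9 and 22.4 CPM in AHRKO replicates 1 to 6 and 39.5, 32.5, 24.7, 48.8, 33.0 and 36.1 CPM in WT replicates 1 to 6. AHRKO replicate 5 was just above WT replicate 3, and the other AHRKO libraries lay below all WT libraries. The log2 fold change was -0.98 ± 0.19 (edgeR, adjusted p = 0.00351). Aldh7a1, which acts in lysine breakdown, fell by less, with 52.9, 55.2, 72.9, 75.0, 73.5 and 58.4 CPM in AHRKO and 79.6, 79.9, 82.1, 84.1, 75.4 and 73.1 CPM in WT. Its log2 fold change was -0.29 ± 0.10 (edgeR, adjusted p = 0.0444). The Aldh7a1 call ended when AHRKO replicate 1, 2 or 6 or any WT replicate was left out, with adjusted p from 0.0559 to 0.0929 by edgeR in those fits. Exons of Aldh7a1 overlap those of Phax on the opposite strand, which averaged 43.5 CPM, and strandedness of the counting is not stated, so reads of the overlap cannot be told apart. Other enzymes of this kind did not pass, among them Aldh18a1, which makes proline precursors, at a log2 fold change of -0.10, and Aldh4a1, of proline breakdown, at -0.18.

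The 3 rises were in other genes of the family. Aldh1b1, a mitochondrial enzyme that oxidises acetaldehyde and retinal, had 8.60, 4.60, 2.54, 3.48, 2.70 and 3.30 CPM in AHRKO replicates 1 to 6, against 1.09, 1.77, 1.86, 1.33, 1.24 and 0.857 CPM in WT replicates 1 to 6. The groups did not overlap and the log2 fold change was 1.62 ± 0.33 (edgeR, adjusted p = 0.00382). Aldh3b1, which oxidises lipid-derived aldehydes at membranes, had 51.7, 32.0, 36.0, 34.1, 26.5 and 32.3 CPM in AHRKO and 27.9, 19.4, 16.3, 19.2, 15.2 and 16.9 CPM in WT. AHRKO replicate 5 lay just below WT replicate 1, and the log2 fold change was 0.89 ± 0.18 (edgeR, adjusted p = 0.00384). Aldh16a1 had 58.7, 52.2, 48.4, 64.6, 49.3 and 45.9 CPM in AHRKO and 43.2, 43.0, 43.4, 38.2, 37.5 and 38.6 CPM in WT. The groups did not overlap, though the change was small, at a log2 fold change of 0.39 ± 0.09 (edgeR, adjusted p = 0.0092). Exons of Aldh16a1 overlap Pih1d1 on the opposite strand, at 31.9 CPM on average. AHRKO replicate 1 held the highest Aldh1b1 and Aldh3b1 values, and without it the log2 fold changes were 1.28 and 0.75 and both still passed.

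The member with the highest mean CPM, Aldh2, had 253, 391, 451, 642, 544 and 488 CPM in AHRKO and 695, 549, 479, 519, 617 and 462 CPM in WT. The groups overlapped broadly, and the log2 fold change was -0.26 ± 0.19 (edgeR, adjusted p = 0.319). The retinal-oxidising enzymes also did not pass. Aldh1a3 had 85.9, 461, 277, 369, 467 and 291 CPM in AHRKO and 339, 234, 308, 274, 149 and 245 CPM in WT (log2 fold change 0.33, edgeR, adjusted p = 0.468). Aldh1a2 had 14.4, 9.73, 5.91, 19.0, 7.53 and 7.64 CPM in AHRKO and 1.05, 7.57, 3.08, 5.22, 7.44 and 7.52 CPM in WT (log2 fold change 1.01, edgeR, adjusted p = 0.0962). Aldh3a1 oxidises aromatic aldehydes and is a classical AHR-induced gene. Its values were 2.43, 70.8, 24.7, 34.4, 86.9 and 38.2 CPM in AHRKO, against 23.9, 26.8, 22.3, 33.4, 16.9 and 23.7 CPM in WT. AHRKO replicate 1 was the lowest of all 12 libraries and AHRKO replicate 5 the highest. With all libraries the log2 fold change was 0.81 ± 0.54 (edgeR, adjusted p = 0.274), and without AHRKO replicate 1 it was 1.06 (adjusted p = 0.0143). The genes in this paragraph other than Aldh2 were singled out after their values were seen.

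**Figure D2:**
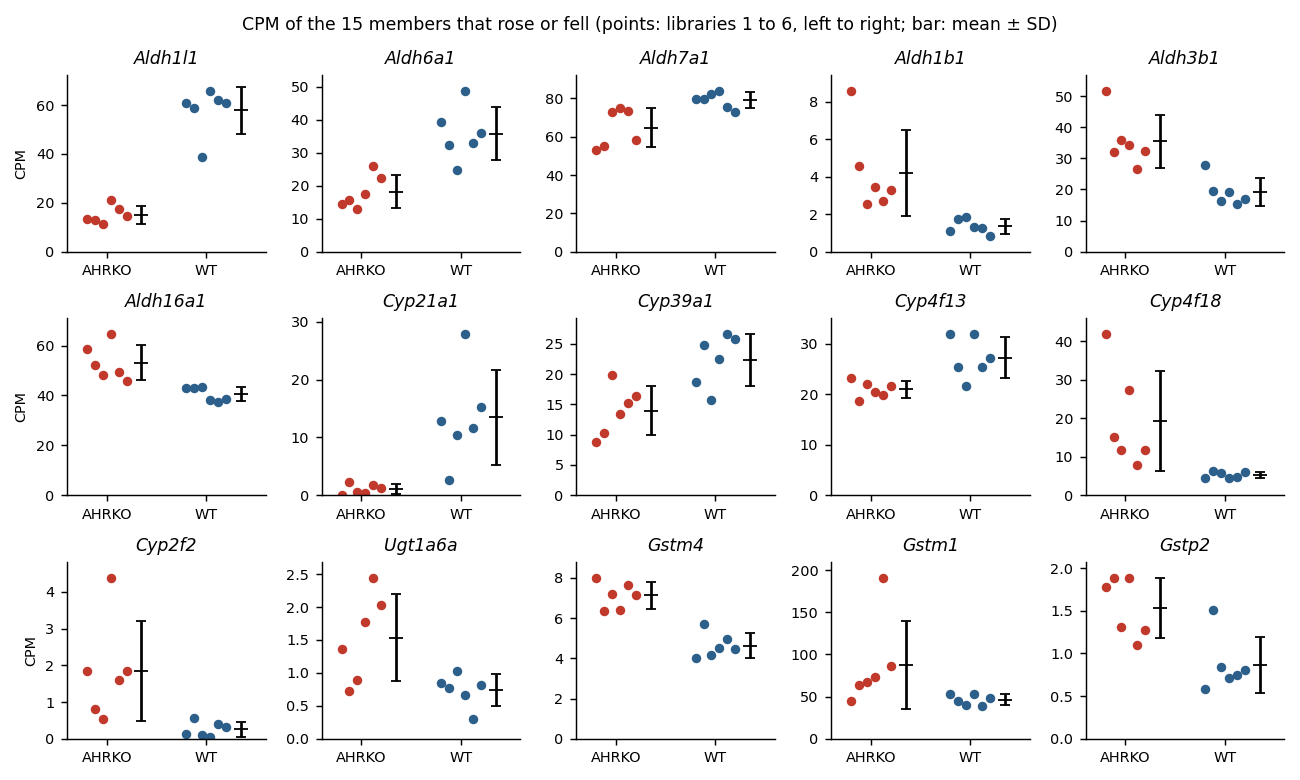
CPM of the 15 enzymes that rose or fell, with 1 point for each of the 6 AHRKO and 6 WT libraries in replicate order and the mean with its SD beside them. Aldh1l1, Aldh1b1, Aldh16a1, Cyp21a1, Cyp4f18 and Gstm4 show no overlap between groups, while the groups of all the others overlap, among them Ugt1a6a, Gstm1, Gstp2 and Aldh7a1.

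Among the P450s that handle steroids, sterols and bile acids, 2 of 6 tested fell, beside 13.6% of all tested genes. So small a group allows no reading of its share. Cyp21a1 (ENSMUSG00000024365, chr17:34801348-34804561 in mm10), the steroid hydroxylase that the adrenal cortex needs for corticosterone and aldosterone, had the largest change of the 66 tested enzymes. It had 0.0593, 2.32, 0.550, 0.342, 1.80 and 1.33 CPM in AHRKO replicates 1 to 6, against 12.9, 2.63, 10.5, 27.8, 11.6 and 15.3 CPM in WT replicates 1 to 6. The highest AHRKO library lay just below the lowest WT library, which was replicate 2. Cyp21a1 met the count filter through its WT libraries, at 92 to 544 counts. AHRKO libraries held 1 to 48 counts, so the size of the change is uncertain. The means were 1.07 ± 0.894 CPM in AHRKO and 13.4 ± 8.25 CPM in WT (SD, n = 6 each), with a log2 fold change of -3.63 ± 0.67 (edgeR, adjusted p = 0.00253). Markers of adrenal and gonadal steroid cells were near 0: Hsd3b1 reached at most 0.129 CPM in AHRKO and 0.102 CPM in WT, and Nr5a1 at most 0.231 CPM in AHRKO and 0.0932 CPM in WT. The ACTH receptor gene Mc2r reached at most 0.636 CPM in AHRKO and 0.149 CPM in WT. The fourth marker of that list, Star, which carries cholesterol into mitochondria, ran from 4.50 to 7.29 CPM in AHRKO and from 6.45 to 10.7 CPM in WT and fell (log2 fold change -0.63, edgeR, adjusted p = 0.0151). The exons of Cyp21a1 overlap those of the pseudogene Tnxa, which had a mean of 0.092 CPM.

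Cyp39a1, which hydroxylates an oxysterol on the way to bile acids, had 8.72, 10.2, 19.8, 13.4, 15.3 and 16.3 CPM in AHRKO, against 18.7, 24.8, 15.8, 22.5, 26.6 and 25.8 CPM in WT. The groups overlapped through AHRKO replicates 3 and 6 and WT replicates 1 and 3, and the log2 fold change was -0.68 ± 0.20 (edgeR, adjusted p = 0.0245). Leaving out AHRKO replicate 2, WT replicate 5 or WT replicate 6 ended the call, at adjusted p of 0.0517, 0.0565 and 0.0540 by edgeR. The remaining 4 did not pass. Cyp27a1, the mitochondrial sterol hydroxylase, had 40.3, 10.4, 11.8, 17.9, 11.2 and 10.9 CPM in AHRKO and 5.80, 10.9, 7.13, 9.82, 8.09 and 11.0 CPM in WT (log2 fold change 0.96 ± 0.34, edgeR, adjusted p = 0.0512). It passed by DESeq2 (adjusted p = 0.0250) and, by edgeR, without AHRKO replicate 2, 5 or 6 (adjusted p of 0.0436, 0.0403 and 0.0434). Without AHRKO replicate 1 its log2 fold change was 0.50 (edgeR, adjusted p = 0.0663). Cyp27a1 was singled out after its values were seen. Cyp7b1, an oxysterol hydroxylase, spread over 2.45 to 39.1 CPM in AHRKO and 3.82 to 36.3 CPM in WT (log2 fold change -0.30, edgeR, adjusted p = 0.749).

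The 3 tested P450s of retinoic acid and vitamin D did not pass. Cyp26b1, which breaks down retinoic acid, had 61.7, 30.3, 46.9, 13.7, 9.46 and 12.6 CPM in AHRKO and 9.75, 26.8, 32.8, 13.7, 9.28 and 21.3 CPM in WT. Its log2 fold change was 0.62 ± 0.49 (edgeR, adjusted p = 0.359). Cyp26a1, with the same role, had 0.59, and Cyp27b1, which activates vitamin D, had 0.44 on the log2 fold change scale. Cyp20a1 ran from 33.1 to 48.8 CPM in AHRKO and from 40.6 to 46.1 CPM in WT (log2 fold change -0.16, edgeR, adjusted p = 0.260).

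Of the 16 tested P450s in the Cyp2, Cyp3 and Cyp4 families, 2 rose and 1 fell, beside 15.9% and 13.6% of all tested genes. Cyp4f18 (ENSMUSG00000003484, chr8:71988482-72009626 in mm10), which inactivates the neutrophil-attracting leukotriene in mice, had 41.8, 15.1, 11.8, 27.2, 7.72 and 11.8 CPM in AHRKO replicates 1 to 6. In WT replicates 1 to 6 it had 4.45, 6.37, 5.64, 4.45, 4.67 and 6.09 CPM. The groups did not overlap, and the spread was far wider in AHRKO. The means were 19.2 ± 12.9 CPM in AHRKO and 5.28 ± 0.862 CPM in WT (SD, n = 6 each), a log2 fold change of 1.86 ± 0.36 (edgeR, adjusted p = 0.00335), and 1.48 without AHRKO replicate 1. The summed CPM of 7 macrophage markers moved with it, at 3696, 1501, 1242, 2270, 550 and 1193 in AHRKO replicates 1 to 6 and 412 to 957 in WT, and 6 of the 7 rose. Replicates 1 and 4 were highest and replicate 5 lowest of the AHRKO libraries for both the gene and the marker sum. The part of macrophages or other leukocytes in the Cyp4f18 result was not tested. The exons of Cyp4f18 overlap Zfp961 on the opposite strand, at 17.6 CPM on average. The median log2 fold change of the 826 tested genes on chromosome 8 was -0.31, opposite in sign to that of Cyp4f18. Chromosome 17 had a median of 0.12, opposite in sign to the falls of Cyp21a1, Cyp39a1 and Cyp4f13. Chromosome 7 had 0.21, the sign of the rises of Aldh16a1 and Cyp2f2, and chromosome 12 had -0.24, the sign of the fall of Aldh6a1. The part of chromosome-wide shifts in these changes was not tested.

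Cyp2f2, a P450 of lung club cells that activates naphthalene, was low but rose. It had 1.84, 0.823, 0.550, 4.39, 1.61 and 1.85 CPM in AHRKO, against 0.126, 0.571, 0.0932, 0.0512, 0.397 and 0.333 CPM in WT. WT replicate 2 just exceeded AHRKO replicate 3, and the log2 fold change was 2.73 ± 0.59 (edgeR, adjusted p = 0.00532). Cyp2f2 met the count filter through its AHRKO libraries, at 8 to 77 counts. WT libraries other than replicate 2 held 1 to 8 counts, so the size of the change is uncertain. Cyp4f13, of the family that hydroxylates fatty acids and eicosanoids, fell slightly, with 23.1, 18.6, 21.9, 20.5, 19.8 and 21.6 CPM in AHRKO and 31.9, 25.3, 21.6, 31.8, 25.3 and 27.1 CPM in WT. The groups overlapped through WT replicate 3. The log2 fold change was -0.38 ± 0.11 (edgeR, adjusted p = 0.0213), and the call ended without WT replicate 4, at an adjusted p of 0.0536 by edgeR.

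Cyp2s1, an epithelial enzyme known as dioxin-inducible, had the highest CPM of these families averaged over all 12 libraries. Per kilobase Cyp4f16 stood higher in both groups, at 11.2 RPKM in AHRKO and 12.9 RPKM in WT, beside 5.27 RPKM in AHRKO and 10.8 RPKM in WT for Cyp2s1. Cyp2s1 had 4.75, 22.0, 35.5, 20.5, 40.8 and 32.5 CPM in AHRKO and 61.4, 62.8, 72.8, 45.5, 28.6 and 48.1 CPM in WT. All AHRKO libraries lay below the WT libraries other than replicate 5, and the log2 fold change was -1.03 ± 0.39 (edgeR, adjusted p = 0.0618). The call turned on single libraries: without AHRKO replicate 1 the log2 fold change was -0.82 (edgeR, adjusted p = 0.0202), and without AHRKO replicate 5 it was -1.21 (adjusted p = 0.0409). DESeq2 and limma-voom also called it, at adjusted p of 0.0364 and 0.0407.  Cyp3a13, a drug-oxidising P450 singled out after its values were seen, had a log2 fold change of -0.48 (edgeR, adjusted p = 0.446). Cyp4f16 and Cyp4f17 had -0.20 and -0.66 on the log2 fold change scale, and both fell in the fit without AHRKO replicate 1.

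Of the 18 tested glutathione S-transferases 3 rose and 0 fell, a count of rises close to the 15.9% of all tested genes. Of the 18 log2 fold changes 9 were positive and 9 negative. At an unadjusted p under 0.05 the test gave 5 higher and 0 lower. DESeq2 also called 3 rises and no fall among these 18. By limma-voom Gsto2 and Gsta1 were further falls, and Gstm5 and Gstcd further rises. Both of these rises were also called by edgeR without AHRKO replicate 1. The mu class genes Gstm4 and Gstm1, near each other on chromosome 3, which conjugate epoxides and quinones, both rose. Gstm4 had 8.01, 6.34, 7.21, 6.38, 7.66 and 7.17 CPM in AHRKO replicates 1 to 6, against 3.99, 5.71, 4.15, 4.50, 4.96 and 4.47 CPM in WT replicates 1 to 6. The groups did not overlap, and the log2 fold change was 0.62 ± 0.13 (edgeR, adjusted p = 0.00569). Gstm1 had 44.7, 63.1, 67.2, 73.4, 191 and 86.6 CPM in AHRKO, against 53.5, 44.2, 40.5, 53.6, 38.8 and 47.7 CPM in WT. AHRKO replicate 1 lay within the WT range and replicate 5 far above all others. Its log2 fold change was 0.92 ± 0.29 (edgeR, adjusted p = 0.0305) and 0.53 without AHRKO replicate 5, and the call ended without WT replicate 2, 3, 5 or 6, at adjusted p from 0.0525 to 0.0665 by edgeR.

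Gstp2, a low pi class gene, had 1.78, 1.89, 1.31, 1.88, 1.09 and 1.27 CPM in AHRKO and 0.588, 1.51, 0.839, 0.716, 0.744 and 0.809 CPM in WT. WT replicate 2 lay within the AHRKO range, and the log2 fold change was 0.81 ± 0.26 (edgeR, adjusted p = 0.0332). Leaving out AHRKO replicate 2 or 4 or WT replicate 1, 3, 4, 5 or 6 ended the call, at adjusted p from 0.0602 to 0.0737 by edgeR. Its near copy Gstp1 averaged 101 ± 20.9 CPM in AHRKO and 91.1 ± 7.14 CPM in WT, with a log2 fold change of 0.15, so the reads given to Gstp2 are uncertain. The most abundant transferase, Gsto1, had 110, 230, 210, 226, 286 and 183 CPM in AHRKO and 265, 187, 198, 245, 183 and 253 CPM in WT (log2 fold change -0.10 ± 0.19, edgeR, adjusted p = 0.728). Gsta4, singled out after its values were seen, had 3.14, 78.4, 51.4, 70.0, 158 and 76.6 CPM in AHRKO and 144, 112, 116, 126, 58.3 and 129 CPM in WT. It spanned a wide range in AHRKO and did not pass (log2 fold change -0.65, edgeR, adjusted p = 0.396). The theta class genes Gstt2 and Gstt1 had log2 fold changes of 1.09 and 0.63, with adjusted p of 0.0927 and 0.0939 by edgeR.

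Of the 4 tested glucuronosyltransferases, Ugt1a6a rose, beside 15.9% of all tested genes. The enzyme conjugates small planar phenols and its gene is a classical AHR target. It had 1.36, 0.726, 0.893, 1.77, 2.45 and 2.02 CPM in AHRKO, against 0.841, 0.771, 1.03, 0.665, 0.298 and 0.809 CPM in WT. AHRKO replicates 2 and 3 lay within the WT range, and the log2 fold change was 1.05 ± 0.34 (edgeR, adjusted p = 0.0359). Leaving out AHRKO replicate 4, 5 or 6 or WT replicate 1, 2, 4, 5 or 6 ended the call, at adjusted p from 0.0561 to 0.0729 by edgeR. The Ugt1a genes share their last exons, so counts of a single Ugt1a gene depend on how the shared reads were treated. Ugt1a7c, from the same locus, had a log2 fold change of 0.01. Ugt2b34, of the family that conjugates steroids and bile acids, had the highest mean CPM, with 2.61, 32.3, 26.5, 32.9, 102 and 95.3 CPM in AHRKO and 152, 55.7, 83.8, 88.5, 43.6 and 86.3 CPM in WT. The groups overlapped, and the log2 fold change was -0.81 ± 0.60 (edgeR, adjusted p = 0.329).

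The enzymes varied more between AHRKO libraries than between WT libraries. The median coefficient of variation of the 66 was 50.2% in AHRKO and 24.4% in WT, beside 24.2% in AHRKO and 14.0% in WT for all tested genes. It was larger in AHRKO for 59 of the 66. AHRKO replicate 1 was the highest AHRKO library for 23 enzymes and the lowest for 24, beside 33.8% and 31.6% of all tested genes. Measured on CPM + 0.5, AHRKO replicate 1 was below 0.5 times the median of the other AHRKO libraries for 11 of the 66 (16.7%, beside 7.74% of all tested genes). The deepest of these gaps were in Gsta4, Aldh3a1, Ugt2b34, Cyp3a13 and Cyp2s1. Cyp3a13, for example, had 1.48 CPM in AHRKO replicate 1 and 13.0 to 22.4 CPM in the other AHRKO libraries, against 13.7 to 33.3 CPM in WT. In 15 of the 66 (22.7%, beside 15.6% of all tested genes) it was above 2 times that median, led by Cyp7b1, Cyp26b1, Cyp4v3 and Gstt2. Cyp4v3, a fatty acid hydroxylase, had 49.5 CPM in AHRKO replicate 1 and 5.47 to 14.3 CPM in the others.

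**Figure D3:**
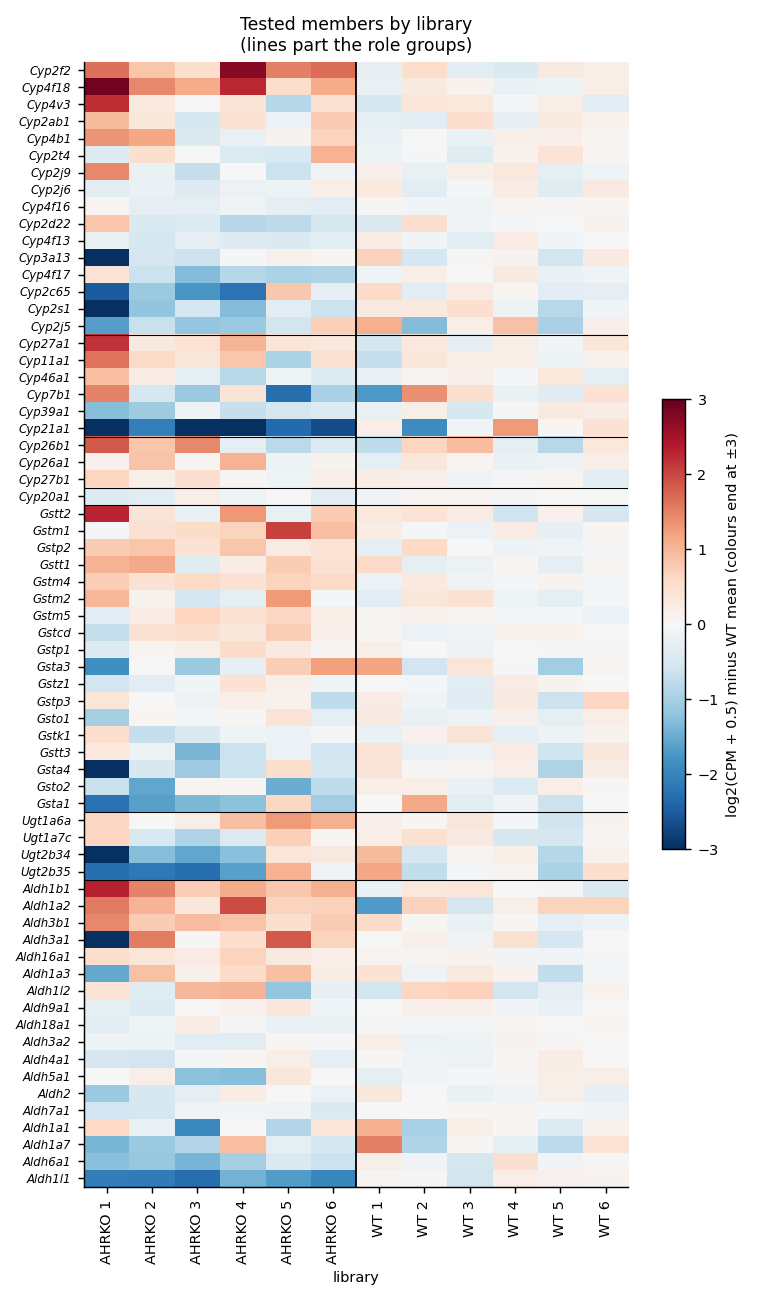
Each row is a tested enzyme and each column a library, coloured by log2(CPM + 0.5) minus the WT mean of that enzyme, with colours ending at 3 units either way and lines between the role groups. AHRKO replicate 1 holds both the darkest falls, such as Gsta4 and Cyp3a13, and dark rises, such as Cyp4f18 and Gstt2.

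Several sums of cell type markers were also extreme in AHRKO replicate 1. In AHRKO replicate 1 the epithelial sum was 691 CPM, against 2956 to 4755 CPM in the other AHRKO libraries and 3419 to 4810 CPM in WT. The fibroblast sum of 8 markers was 57079 CPM in that library, against 8939 to 20962 CPM in the other AHRKO libraries and 15530 to 39025 CPM in WT. The endothelial sum of 6 markers was 1247 CPM in that library, against 248 to 390 CPM in the other AHRKO libraries and 209 to 496 CPM in WT. The median log2 fold change of the markers was -0.43 for epithelium, -0.25 for fibroblasts and 0.70 for endothelium. The mast cell sum of 6 markers ran from 50.6 to 146 CPM in AHRKO and from 16.7 to 65.6 CPM in WT, and 5 of the 6 rose. For keratinocytes the sum ran from 10.5 to 90.0 CPM in AHRKO and from 28.1 to 54.8 CPM in WT. Of 4 tested markers 3 fell, Krt10, Lor and Ivl, with means of at most 6.66 CPM. Krt14, the largest part of the sum, went the other way, at a mean of 55.3 CPM in AHRKO and 23.0 CPM in WT. It did not pass (log2 fold change 1.27, edgeR, adjusted p = 0.105). Krt5, below the filter, averaged 2.58 CPM in AHRKO and 0.0471 CPM in WT. Acinar cells gave 8.01 to 49.9 CPM in AHRKO and 15.2 to 28.0 CPM in WT. Hepatocyte markers summed to at most 5.92 CPM in AHRKO and 7.14 CPM in WT, with Alb at most 0.285 CPM in AHRKO and 0.238 CPM in WT and Tat at 0 in every library. The part of these cells in the enzyme values was not tested.

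**Figure D4:**
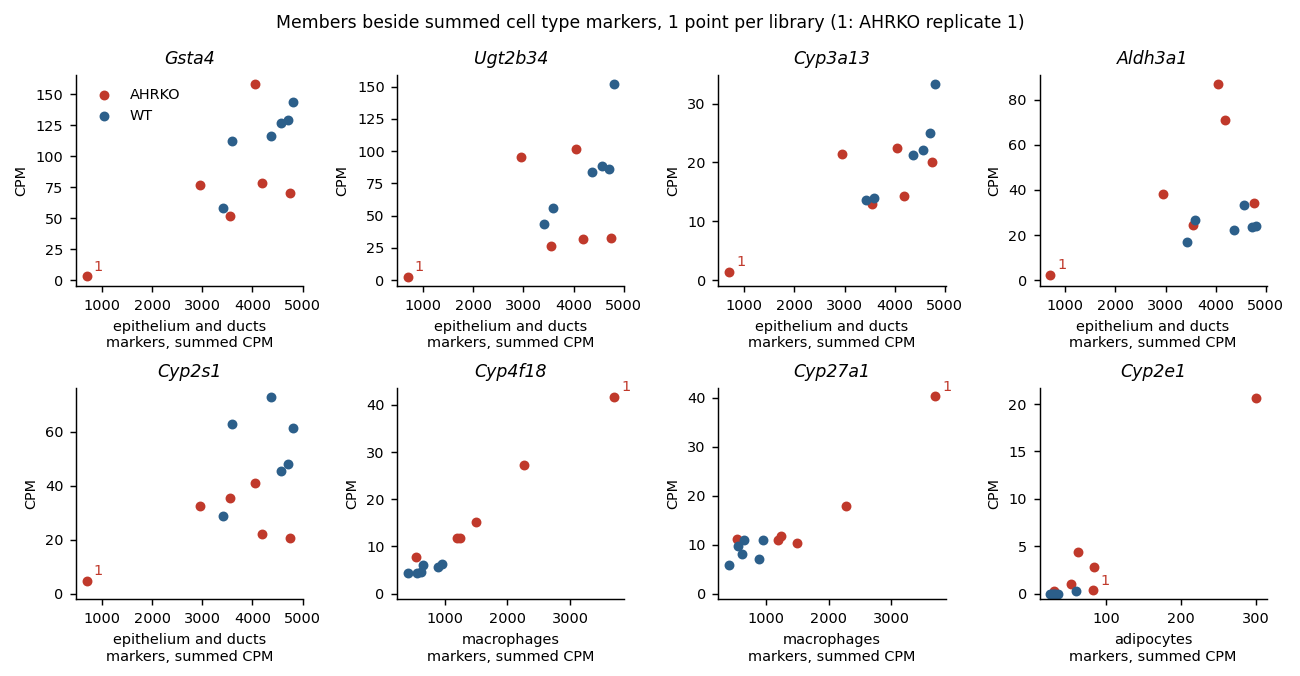
Each panel sets an enzyme's CPM against the summed CPM of a cell type's markers, 1 point per library, AHRKO in red and WT in blue, with AHRKO replicate 1 numbered. Gsta4, Ugt2b34, Cyp3a13, Aldh3a1 and Cyp2s1 were chosen for their deep gaps in AHRKO replicate 1, the library with the lowest epithelial sum. That they are lowest there follows from this choice. Cyp4f18 and Cyp27a1 are highest where the macrophage sum is highest, and Cyp2e1 is highest where the adipocyte sum is highest. These pairs of gene and markers were also chosen, with Cyp27a1 and Cyp2e1 singled out after their values were seen. The library with the highest macrophage sum, AHRKO replicate 1, also had the highest leukocyte, fibroblast and endothelial sums. The part of any of these cells was not tested.

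Below the filter on low counts stood 62 enzymes with some reads and 37 with none, and 81 of these 99 never exceeded 10 counts in any library. Cyp2e1, the ethanol-oxidising P450, was the exception with the highest count. It had 6, 6, 14, 363, 68 and 48 counts in AHRKO replicates 1 to 6, against 0, 0, 0, 0, 5 and 0 counts in WT replicates 1 to 6. All 6 AHRKO libraries held more counts than any WT library. In an edgeR fit with no filter its log2 fold change was 6.84 ± 1.33 (adjusted p = 0.00421), a value that depends on the prior count because most WT libraries were at 0. The summed CPM of 5 adipocyte markers was 82.6, 30.5, 53.4, 300.4, 62.4 and 84.2 in AHRKO replicates 1 to 6 and 24.7 to 59.3 in WT, and Plin1 and Fabp4 rose. The part of adipocytes in the Cyp2e1 counts was not tested. In the same edgeR fit Gstm7 rose (log2 fold change 1.52, adjusted p = 0.0300) and Cyp4f15 fell (log2 fold change -3.25, adjusted p = 0.0444). Cyp4f15 had 0, 0, 0, 0, 6 and 0 counts in AHRKO and 49, 8, 7, 7, 4 and 11 counts in WT. These genes were singled out after their values were seen.

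Genes that serve these enzymes were taken from 7 short lists. Over all tested genes 15.9% rose, 13.6% fell and the median log2 fold change was 0.02, and the counts of each list are to be read beside these shares. Of 11 tested genes for redox partners and heme, 2 rose, with a median log2 fold change of 0.18. Alas1, which sets the rate of heme synthesis, had 121, 73.7, 56.7, 91.2, 65.3 and 92.3 CPM in AHRKO and 50.8, 48.9, 44.7, 45.7, 47.5 and 40.1 CPM in WT (log2 fold change 0.85 ± 0.16, edgeR, adjusted p = 0.00261). Por, the reductase that feeds electrons to microsomal P450s, had 147, 176, 190, 229, 235 and 210 CPM in AHRKO and 176, 149, 159, 122, 125 and 124 CPM in WT (log2 fold change 0.47 ± 0.13, edgeR, adjusted p = 0.0185). The Alas1 groups did not overlap, while Por in AHRKO replicate 1 lay below the highest WT library.

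Of 33 tested phase 1 genes outside the 4 families, 10 rose and 5 fell, with a median of 0.17. Xdh, which oxidises purines to uric acid, had 344, 298, 281, 226, 203 and 398 CPM in AHRKO and 108, 83.3, 105, 112, 53.1 and 95.2 CPM in WT (log2 fold change 1.65 ± 0.20, edgeR, adjusted p = 0.000263). Ephx2, the soluble epoxide hydrolase of fatty acid epoxides, had 4.51, 3.05, 9.55, 13.0, 6.11 and 7.35 CPM in AHRKO and 41.4, 36.9, 19.2, 29.1, 40.3 and 26.1 CPM in WT (log2 fold change -2.15 ± 0.32, edgeR, adjusted p = 0.000854). Neither gene's groups overlapped. Ephx4, a related hydrolase, fell to a mean of 0.130 CPM in AHRKO, against 1.90 CPM in WT (log2 fold change -3.76 ± 0.48, edgeR, adjusted p = 0.000367). Ephx4 met the count filter through its WT libraries and was near 0 in AHRKO. Fmo1 and Fmo2, flavin monooxygenases, rose, and so did the microsomal hydrolase Ephx1. The amine oxidases split, with Maob rising and Maoa falling.

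Phase 2 genes outside the families gave 3 rises and 1 fall among 20 tested, with a median of 0.02. Sult1a1, a phenol sulfotransferase, averaged 6.11 ± 2.77 CPM in AHRKO and 1.66 ± 0.445 CPM in WT (log2 fold change 1.88 ± 0.31, edgeR, adjusted p = 0.00128). The microsomal glutathione transferase Mgst1 rose by 0.77 ± 0.13 on the log2 scale (edgeR, adjusted p = 0.00185). Gsr, which regenerates reduced glutathione, fell (log2 fold change -0.77, edgeR, adjusted p = 0.00221).

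Of 15 tested transporter genes 1 rose and 4 fell, with a median of -0.06. The P-glycoprotein genes Abcb1a and Abcb1b both fell. Abcb1a had 51.3, 33.3, 57.1, 71.7, 46.3 and 34.7 CPM in AHRKO and 160, 106, 82.1, 94.6, 138 and 94.8 CPM in WT, with no overlap (log2 fold change -1.20 ± 0.21, edgeR, adjusted p = 0.00205). Abcb1b averaged 46.8 ± 5.39 CPM in AHRKO and 78.4 ± 15.2 CPM in WT (log2 fold change -0.74 ± 0.13, edgeR, adjusted p = 0.00187). Abcb4, a phospholipid exporter from the same gene cluster, had a log2 fold change of -1.46 (edgeR, adjusted p = 0.00924) and did not pass by limma-voom (adjusted p = 0.0511).

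Among 24 tested transcription factors of the pathway, 4 rose and 4 fell, with a median of 0.13. Arnt2, an alternative partner of AHR, averaged 1.93 ± 0.930 CPM in AHRKO and 7.71 ± 2.59 CPM in WT (log2 fold change -1.99 ± 0.32, edgeR, adjusted p = 0.00127). Nr1h2, an oxysterol receptor, had a log2 fold change of 0.42 ± 0.08 (edgeR, adjusted p = 0.00282), and the retinoic acid receptor gene Rarg had 0.44 ± 0.11 (adjusted p = 0.00945). Among 20 tested genes of retinoid handling, 5 rose and 2 fell, with a median of 0.15. Rbp4, the retinol carrier, had 2.79, 3.10, 24.9, 43.4, 16.2 and 12.8 CPM in AHRKO and 146, 88.2, 79.8, 103, 141 and 115 CPM in WT, with no overlap (log2 fold change -2.71 ± 0.56, edgeR, adjusted p = 0.00461). Adh1, an alcohol dehydrogenase that oxidises retinol, rose to a mean of 2.38 CPM in AHRKO, against 0.481 CPM in WT (log2 fold change 2.29 ± 0.46, edgeR, adjusted p = 0.00376). Adh1 met the count filter through its AHRKO libraries. Dhrs3, which turns retinal back into retinol, had a log2 fold change of 0.56 ± 0.12 (edgeR, adjusted p = 0.00454). Of the 5 tested genes in a short list of left-out Cyp1 and AHR-induced genes, Ahrr, the AHR repressor, fell. It ran from 0.342 to 1.72 CPM in AHRKO and from 1.19 to 2.17 CPM in WT (edgeR, adjusted p = 0.0476), and leaving out any library other than AHRKO replicate 1 ended the call.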

How the data were processed

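RNA of 6 AHRKO and 6 WT libraries, taken here as tumours, was sequenced after poly-T selection, per the labels. The submitters' processing notes name HISAT2, SAMtools, HTSeq and DESeq2 and the mm10 build, but no versions, annotation or strandedness. As deposited by the authors, values are raw whole-number read counts per gene.

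Symbols were joined by Ensembl identifier from GENCODE M21, and 42548 of 43432 identifiers matched. Genes were kept by edgeR's filterByExpr (minimum count 10), scaled by TMM and compared by edgeR's two-sided quasi-likelihood test, with p-values adjusted by Benjamini-Hochberg over 15449 genes and a threshold of 0.05. The work used edgeR 4.0.16, DESeq2 1.42.0 and limma 3.58.1 in R 4.3.3. The filter can be met by the libraries of a single group. The fit was tested on simulated counts. CPM use the TMM-scaled totals, and RPKM divide CPM by the union exon length in units of 1000 bases. Named genes were, in each role group, up to 6 tested members past the threshold by smallest p and the most abundant tested member, and up to 3 from each of 7 pathway lists. A gene that this rule takes is not reported here. The members and the lists, including 12 lists of cell type markers, were chosen with earlier results of these data known. Library totals are in the report, and counts carry no molecular identifiers. No pair of libraries within a group agreed within sampling noise (lowest chi-squared per degree of freedom 13.7). Alternatives were DESeq2, limma-voom, a robust fit, RLE and upper-quartile scaling, no filter, a stricter filter, a block for the replicate number and 12 fits without 1 library each.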

Additional observations from a re-analysis of the deposited data

Results flagged for a closer look

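In 6 of 42 groups of 6 libraries, formed by the 21 named enzymes in AHRKO and in WT, the highest or lowest library stood apart by Dixon's criterion, which sets the gap to the nearest neighbour against the range of the group. Chance alone flags about 1 in 20 groups if values are normally distributed. Whether these CPM are so distributed was not tested, so the number of flags cannot be set against that rate. In AHRKO these were Cyp2f2 in replicate 4 at 4.39 CPM, Aldh1b1 in replicate 1 at 8.60 CPM and Gstm1 in replicate 5 at 191 CPM, all high. In WT they were Aldh1l1 in replicate 3 at 38.7 CPM, which was low, and Aldh3b1 in replicate 1 at 27.9 CPM and Gstp2 in replicate 2 at 1.51 CPM, both high.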

How the results depend on the processing

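Of the 15 called enzymes, 9 passed in every alternative that could test them: Cyp21a1, Cyp4f18, Cyp2f2, Aldh1l1, Aldh6a1, Aldh1b1, Aldh3b1, Aldh16a1 and Gstm4. Cyp2f2 was not tested under the stricter filter, and it met the main filter through its AHRKO libraries. Cyp21a1 met the main filter through its WT libraries. The other 6 lost the call in at least 1 alternative, and the cause was not tested. Falls among the enzymes numbered 13 with limma-voom, against 6 in edgeR. Over all tested genes falls numbered 2948 with limma-voom, against 2106 in edgeR. Leaving out each library gave 6 to 13 rises and 4 to 9 falls among the enzymes, the most of both without AHRKO replicate 1. That fit also gave the most rises and falls over all genes among the fits without 1 library, at 2980 and 2778. In the pathway lists, outside the enzymes, 23 genes rose and 16 fell, and leaving out a library gave 10 to 22 falls, with 10 without AHRKO replicate 2. Gsto1 had a log2 fold change from -0.21 to 0.033 when a library was left out, positive without AHRKO replicate 1, and Ahr had 0.0093 with limma-voom.

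The replicate numbers did not pair the samples: the correlations of same-numbered AHRKO and WT libraries ran from -0.49 to 0.01, and no library correlated best with its own number. With the replicate number as a block, 1114 genes rose and 1240 fell among all tested genes, 6 enzymes rose and 3 fell, and 14 listed genes rose and 9 fell. Depth limits the 62 enzymes with reads below the filter.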

Other observations

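Cyp2d26, a P450 below the filter on low counts, had 4, 8, 14, 44, 213 and 21 counts in AHRKO replicates 1 to 6, against 38, 8, 8, 5, 8 and 9 counts in WT replicates 1 to 6, so its highest count was in AHRKO replicate 5, the library with the highest Gstm1. It did not pass in edgeR's fit with no filter (log2 fold change 2.50, adjusted p = 0.0768) and passed by DESeq2 (adjusted p = 0.0134). The summed CPM of 6 skeletal muscle markers was 274 in AHRKO replicate 2, at most 7.12 in the other AHRKO libraries and at most 8.09 in WT.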
